A study of Mus musculus with 10 samples.

Results

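Genes that carry out or control fatty acid oxidation under the nuclear receptor PPAR alpha were followed through 5 parts of the mouse gut after sleeve gastrectomy or sham surgery. They were Ppara itself, Creb3l3, Pdk4, Angptl4, Cpt1a, Acadm, Ehhadh and Acaa1b. These genes were named by symbol, 8 of the 23079 genes in the deposited table, and they were chosen with earlier results of these data known. All 8 were measured in all 10 libraries, and all 8 had a mean of at least 1 RPKM (reads per kilobase of gene, scaled to library depth) in every pair of libraries compared.

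PPAR alpha is a nuclear receptor that binds fatty acids and their derivatives and pairs with a retinoid X receptor on DNA. It is best known for switching on fatty acid oxidation in the fasted liver, and in the small intestine it responds to fat in the diet. The other genes stand at different points of the same programme. Creb3l3 (CREBH) is a membrane-bound transcription factor of liver and small intestine that controls apolipoprotein genes. Pdk4 is a kinase that shuts off pyruvate dehydrogenase, so that fat is burnt in place of glucose, and Angptl4 is a secreted inhibitor of lipoprotein lipase. Cpt1a admits long-chain fatty acids to mitochondria, Acadm opens the oxidation of medium-chain acyl-CoA there, and Ehhadh and Acaa1b catalyse later steps of oxidation in peroxisomes.

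The mice were C57BL/6J males aged 17 weeks, all kept on a high-fat diet for 13 weeks and fasted overnight ahead of the operation. Vertical sleeve gastrectomy (VSG) cut away the lateral 80% of the stomach, and sham surgery opened the abdomen and pressed the stomach with hemostats. All mice drank a liquid diet for 3 days after the operation and then returned to the high-fat diet. From stomach, duodenum, jejunum, ileum and colon came 1 VSG and 1 sham library of total RNA each, so a difference between the pair of a tissue is unreplicated. The number of animals behind a library and the time between surgery and tissue collection are not stated in the labels.

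The libraries held between 36073714 (VSG jejunum) and 79313219 (sham stomach) reads on genes, recovered from the steps of the RPKM values. In several libraries marker genes went against the label or showed RNA of another tissue. In the library labelled sham duodenum, 10 enterocyte markers such as Sis and Lct summed to 6.87 RPKM against 13870 RPKM in VSG duodenum, while 9 markers of neurons and glia summed to 2087 RPKM against 16.2 RPKM. In VSG stomach, 15 liver markers led by Alb summed to 18970 RPKM against 67.6 RPKM in sham stomach, 9 leukocyte markers to 3716 RPKM against 233 RPKM, and 6 parietal cell markers to 228 RPKM against 5918 RPKM. The 7 pancreatic acinar markers summed to 2598 RPKM in VSG duodenum, 1482 RPKM in VSG stomach, 407 RPKM in VSG colon and 224 RPKM in VSG jejunum, against 3.33 RPKM in VSG ileum, 132 RPKM in sham stomach and 1.89 to 6.11 RPKM in the other sham libraries. Results are given with these values beside them.

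**Figure D1:**
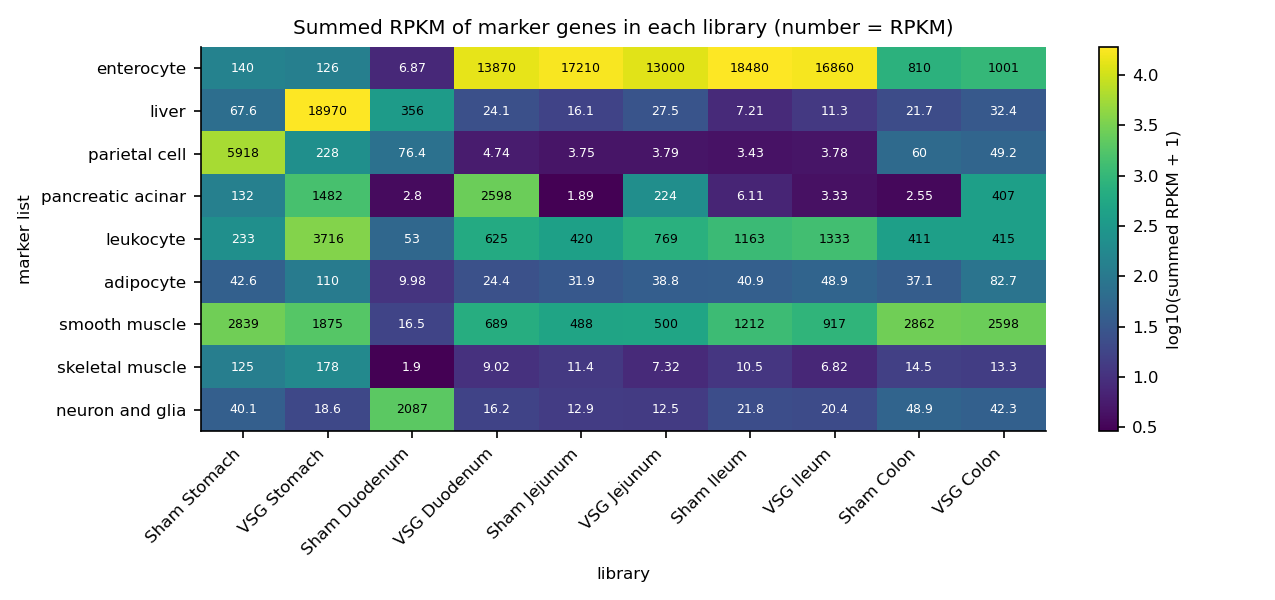
Summed RPKM of the marker genes of 9 tissues or cell types (rows) in each of the 10 libraries (columns); the colour is log10(summed RPKM + 1) and the number in a cell is the sum itself. The library labelled sham duodenum holds 6.87 RPKM of enterocyte markers and 2087 RPKM of neuron and glia markers, and VSG stomach holds 18970 RPKM of liver markers.

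Promoter sequence is shown for the genes that differed most between VSG and sham in the intestine (Pdk4, Creb3l3 and Acaa1b; Angptl4 is named only), because PPAR alpha is known to bind a pair of AGGTCA copies set 1 base apart. RefSeq windows of 300 bases (250 before to 50 after a start, GRCm38.p6) were found for 7 of the 8 genes, with 2 windows for Creb3l3. Both strands were searched for 2 copies of AGGTCA 1 base apart with at most 2 mismatches in the 12 fixed bases. Of the 8 windows, 1 held a match, at the inner start of Creb3l3, with its first base at position -209 from that start. Among 32851 windows of the same length over the mouse genome, 3.86% held one. Each sequence runs 5′ to 3′ on the gene's strand, and capitals mark the match, which is a resemblance of letters and not a measured binding site.
Creb3l3, inner start, chr10:81092542-81092841, minus strand: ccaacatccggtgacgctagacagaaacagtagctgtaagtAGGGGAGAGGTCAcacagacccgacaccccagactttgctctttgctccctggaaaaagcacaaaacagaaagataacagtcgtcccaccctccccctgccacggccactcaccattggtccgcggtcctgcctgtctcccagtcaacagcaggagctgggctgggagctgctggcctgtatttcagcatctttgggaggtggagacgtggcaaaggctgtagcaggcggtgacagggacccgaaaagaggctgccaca
Creb3l3, outer start, chr10:81098823-81099122, minus strand: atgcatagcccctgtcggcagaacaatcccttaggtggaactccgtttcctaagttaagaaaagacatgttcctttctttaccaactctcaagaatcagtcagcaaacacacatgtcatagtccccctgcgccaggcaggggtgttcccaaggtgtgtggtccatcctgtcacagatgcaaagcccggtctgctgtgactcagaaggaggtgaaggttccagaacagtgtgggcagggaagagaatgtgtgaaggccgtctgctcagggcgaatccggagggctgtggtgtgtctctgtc
Pdk4, chr6:5496229-5496528, minus strand: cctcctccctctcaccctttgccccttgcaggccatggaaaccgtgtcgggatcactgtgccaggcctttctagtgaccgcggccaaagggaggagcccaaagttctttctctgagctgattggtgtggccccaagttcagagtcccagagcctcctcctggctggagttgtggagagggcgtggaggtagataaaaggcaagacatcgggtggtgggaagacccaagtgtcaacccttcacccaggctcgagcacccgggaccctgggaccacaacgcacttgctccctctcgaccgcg
Acaa1b, chr9:119157044-119157343, minus strand: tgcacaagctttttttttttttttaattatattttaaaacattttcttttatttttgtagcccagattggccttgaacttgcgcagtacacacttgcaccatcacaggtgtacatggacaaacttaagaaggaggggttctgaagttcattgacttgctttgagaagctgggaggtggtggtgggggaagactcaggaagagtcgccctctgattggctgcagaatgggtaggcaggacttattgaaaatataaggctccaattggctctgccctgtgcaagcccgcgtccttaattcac
In the window of Acadm the nearest approach had 3 mismatches, and in those of Ppara, Pdk4, Acaa1b, Cpt1a and Ehhadh and at the outer start of Creb3l3 it had 4. At 3 mismatches 24.65% of all windows matched, and at 4 mismatches 79.82%.

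The receptor was lower in stomach than in the intestine. Ppara (chr15:85734910-85806851) stood at 3.47 RPKM in sham stomach, 14.62 in sham jejunum, 15.23 in sham ileum and 10.52 RPKM in sham colon. After VSG it stood at 8.55 RPKM in stomach, 16.38 RPKM in duodenum, 14.70 RPKM in jejunum, 12.96 RPKM in ileum and 12.85 RPKM in colon. Both stomach libraries lay below all 7 intestinal libraries, whose range was 10.52 to 16.38 RPKM. How many of all genes have libraries split by tissue in this way was not counted, here and below. The library labelled sham duodenum gave 1.27 RPKM. Against the mean of the other 4 tissues, stomach was lower by a log2 difference of -1.17 (SE 0.27, limma adjusted p = 0.0217), where 19.5% of 13325 genes were called (adjusted p under 0.05 and at least 2-fold, either direction). This fit used 9 libraries, without the one labelled sham duodenum, so duodenum rests on its VSG library alone. The Ppara call was lost without any of sham colon, sham ileum, sham jejunum or VSG colon (limma adjusted p between 0.0506 and 0.0653), and without sham stomach the log2 difference was -0.67 (adjusted p = 0.00906). Without VSG stomach, the library with liver RNA, it was -1.74 (SE 0.15, adjusted p = 0.000199). Jejunum was also called above stomach for Ppara (1.26, SE 0.33, limma adjusted p = 0.0325; 25.2% of genes called). That call was lost without sham colon, VSG colon, sham jejunum or VSG jejunum (adjusted p between 0.0760 and 0.184), and without sham stomach the log2 difference, 0.72, was under the 2-fold limit. For jejunum, ileum, colon and duodenum against the mean of the other tissues, the limma adjusted p values of Ppara lay between 0.281 and 0.963. In a bulk sample, fewer cells of a type and less RNA per cell cannot be told apart, here and below.

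Creb3l3 had the steepest profile of the 8 along the gut. Creb3l3 (chr10:81084329-81098872) reached 474.7 RPKM in sham jejunum and 226.5 in sham ileum, against 6.48 in sham colon and 1.32 RPKM in sham stomach. The VSG libraries held 295.9 RPKM in duodenum, then 378.2 in jejunum, 231.6 in ileum, 17.91 in colon and 39.78 RPKM in stomach. In sham jejunum it was the gene of rank 140 among all 23079, and in sham stomach of rank 12072. All 5 libraries of small intestine with enterocyte RNA lay above 226 RPKM and all 4 of stomach and colon below 40 RPKM. The share of all genes split in this way was not counted. In the library labelled sham duodenum the level was 0.309 RPKM. Enterocyte markers were also higher in those 5 libraries, at 13000 to 18480 RPKM, than in colon, at 810 and 1001 RPKM, and in stomach, at 126 and 140 RPKM. In sham libraries their sum was higher in ileum than in jejunum, led by Fabp2 (12760 against 9898 RPKM). The median marker was higher in sham jejunum than in sham ileum (944.2 against 506.3 RPKM), as Creb3l3 was. VSG stomach held less of these markers than either colon library, unlike Creb3l3. Their part in the profile was not tested.

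The limma contrasts placed Creb3l3 lower in stomach (log2 difference -3.65, SE 0.91, adjusted p = 0.0288) and in colon (-3.28, SE 0.91, adjusted p = 0.0432) than in the mean of the other tissues. In colon 12.5% of the 13325 genes were called. The jejunum estimate of 3.16 (SE 0.91, limma adjusted p = 0.0543) missed the threshold, with 9.73% of genes called in that contrast, and so did ileum at 2.06 (SE 0.91, adjusted p = 0.215), where 5.72% were called. Between neighbours, ileum was above colon by 4.27 (SE 1.12, limma adjusted p = 0.0482; 11.6% of genes called) and jejunum above stomach by 5.45 (SE 1.12, adjusted p = 0.0162; 25.2% called). Jejunum and ileum were not told apart (0.88, SE 1.12, limma adjusted p = 0.695; 2.37% of genes called). The stomach call was lost without any of sham colon, sham ileum, sham jejunum, VSG colon or VSG ileum (adjusted p between 0.0513 and 0.0777). The colon call and the ileum to colon call were each lost without any 1 of the 6 libraries of jejunum, ileum and colon (adjusted p 0.0606 to 0.249 and 0.0773 to 0.263). The jejunum to stomach call was lost without sham jejunum (adjusted p = 0.112) and kept without each of the other 8 libraries.

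In the fit without VSG stomach, the library with liver RNA, more genes of all those tested were called in each tissue, and calls of members were added. The share of 12945 genes called was 22.1% for stomach, 14.3% for colon, 12.4% for jejunum, 9.8% for duodenum and 8.34% for ileum, 14.2% between ileum and colon and 28.6% between jejunum and stomach. Creb3l3 was then called in every tissue, with log2 differences of -5.66 in stomach (SE 0.43, limma adjusted p = 0.000107), 2.66 in duodenum (SE 0.43, adjusted p = 0.00608), 3.52 in jejunum (SE 0.30, adjusted p = 0.000204), 2.41 in ileum (SE 0.30, adjusted p = 0.00152) and -2.93 in colon (SE 0.30, adjusted p = 0.000360). Acaa1b was then called lower in stomach (-1.85, SE 0.52, limma adjusted p = 0.0256) and higher in jejunum (1.31, SE 0.37, adjusted p = 0.0205), and Angptl4 higher in ileum than in colon (1.45, SE 0.43, adjusted p = 0.0272). Pdk4, Cpt1a and Acadm gained no call. Stomach then rests on its sham library alone, which is assumed to vary like the others. The fit without sham stomach, which keeps the library with liver RNA, also called more genes in each tissue. It added calls of members as well, while the calls of Ppara were lost. The gain was thus not particular to leaving out VSG stomach.

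Pdk4 had its highest level in sham jejunum. Pdk4 (chr6:5483351-5496278) stood at 8.89 RPKM in sham stomach, 26.21 in sham jejunum, 5.36 in sham ileum and 2.86 RPKM in sham colon. After VSG it stood at 5.11 RPKM in stomach, 17.84 RPKM in duodenum, 13.67 RPKM in jejunum, 7.37 RPKM in ileum and 12.95 RPKM in colon, and the library labelled sham duodenum held 4.30 RPKM. In the VSG libraries duodenum was highest, and jejunum and colon stood close to each other. No tissue was told apart from the others for Pdk4, with limma adjusted p values between 0.187 and 0.525. Its sister kinases were steadier: Pdk2 ran from 22.07 to 53.32 RPKM and Pdk1 from 5.66 to 11.79 RPKM over the 9 libraries without the one labelled sham duodenum.

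Angptl4 (chr17:33774900-33781575) stood at 4.11 RPKM in sham stomach, 19.75 in sham jejunum, 17.11 in sham ileum and 3.43 RPKM in sham colon. After VSG it stood at 26.63 RPKM in stomach, 17.41 RPKM in duodenum, 10.34 RPKM in jejunum, 17.58 RPKM in ileum and 9.16 RPKM in colon. The 2 sham libraries of jejunum and ileum lay above those of stomach and colon, and VSG stomach, the library with liver RNA, was the highest of all. The library labelled sham duodenum held 2.30 RPKM. No tissue was told apart from the others (limma adjusted p between 0.214 and 0.899). Lpl, which encodes the lipase that Angptl4 inhibits, held 43.60 and 27.83 RPKM in sham and VSG stomach against 0.78 and 2.51 RPKM in jejunum (jejunum minus stomach -3.84, limma adjusted p = 0.00195).

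The 2 mitochondrial enzymes were the flattest members. Cpt1a (chr19:3322326-3385735) held 55.83 RPKM in sham stomach, 59.74 in sham jejunum, 57.38 in sham ileum and 88.75 RPKM in sham colon. The VSG libraries held 58.33 RPKM in stomach, 88.55 RPKM in duodenum, 56.17 RPKM in jejunum, 64.03 RPKM in ileum and 111.6 RPKM in colon. Cpt1a was thus the member whose highest level lay in colon, where both libraries were above all others, sham colon by a narrow margin over VSG duodenum. Colon exceeded the other tissues by a log2 difference of 0.62 (SE 0.11, limma adjusted p = 0.0128) and stood above ileum by a log2 difference of ileum minus colon of -0.71 (SE 0.13, adjusted p = 0.0220), both under the 2-fold limit of a call. Acadm (chr3:153922353-153944643) held 71.56 RPKM in sham stomach, 124.9 in sham jejunum, 84.30 in sham ileum and 89.60 RPKM in sham colon. The VSG libraries held 61.62 RPKM in stomach, 119.2 RPKM in duodenum, 107.8 RPKM in jejunum, 87.75 RPKM in ileum and 96.45 RPKM in colon. Both stomach libraries lay below all intestinal ones (log2 difference -0.63, SE 0.11, limma adjusted p = 0.00985, again under 2-fold). The library labelled sham duodenum held 14.58 RPKM of Cpt1a and 30.28 RPKM of Acadm.

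Ehhadh gave the most calls between tissues, with a fall from duodenum to colon. Ehhadh (chr16:21761285-21787834) held 114.8 RPKM in VSG duodenum, 82.57 and 70.08 in sham and VSG jejunum, 32.72 and 33.30 in ileum, 18.89 and 24.03 in colon and 16.86 and 20.47 RPKM in stomach. The libraries of jejunum, ileum and the lower pair of stomach and colon did not overlap, whereas stomach and colon overlapped each other. The share of all genes with such a split was not counted. The library labelled sham duodenum held 2.15 RPKM. Against the other tissues the log2 difference was 1.77 in duodenum (SE 0.19, limma adjusted p = 0.0141; 4.74% of genes called), 1.10 in jejunum (SE 0.14, adjusted p = 0.00710), -1.13 in colon (SE 0.14, adjusted p = 0.00481) and -1.37 in stomach (SE 0.14, adjusted p = 0.00174). Ehhadh was also called above ileum in jejunum (1.18, SE 0.17, limma adjusted p = 0.0404) and above stomach in jejunum (1.98, SE 0.17, adjusted p = 0.00109), while ileum against colon missed (0.61, SE 0.17, adjusted p = 0.0534). Of all 13325 genes, 9.73% were called in jejunum, 12.5% in colon and 19.5% in stomach. Between tissues it was 2.37% for jejunum and ileum, 25.2% for jejunum and stomach and 11.6% for ileum and colon.

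The jejunum to stomach call of Ehhadh was kept without each of the 9 libraries in turn (limma adjusted p at most 0.0108). VSG duodenum, the only duodenum library in the fit, also holds the most acinar RNA, whose part in the duodenum value was not tested. The stomach call was lost without that library, where the log2 difference was -0.99, and the jejunum call without sham jejunum (0.90, adjusted p = 0.0694). The colon call was lost without sham colon, VSG colon or VSG duodenum (-0.99, -1.30 and -0.74; limma adjusted p = 0.0691, 0.0562 and 0.0140). The duodenum call was lost without either colon library, either ileum library or VSG jejunum (adjusted p between 0.0514 and 0.0875), and the jejunum to ileum call without any 1 of the 6 libraries of jejunum, ileum and colon (0.124 to 0.362).

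Acaa1b (chr9:119148043-119157093) held 20.23 RPKM in sham stomach, 167.8 in sham jejunum, 59.17 in sham ileum and 23.46 RPKM in sham colon. The VSG libraries held 184.5 RPKM in stomach, 136.0 RPKM in duodenum, 87.94 RPKM in jejunum, 49.95 RPKM in ileum and 54.22 RPKM in colon. Among sham libraries jejunum stood highest and stomach and colon lowest, and VSG stomach was above every other library. The library labelled sham duodenum held 7.85 RPKM. No contrast with the other tissues was called over the 9 libraries (limma adjusted p between 0.304 and 0.865). Acaa1a, a closely similar thiolase gene at chr9:119341028-119350296, can share reads with Acaa1b, and no label says how such reads were assigned, so the values of Acaa1b are uncertain. Acaa1a held 283.6 and 183.8 RPKM in sham and VSG jejunum and 78.50 and 98.12 RPKM in colon.

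**Figure D2:**
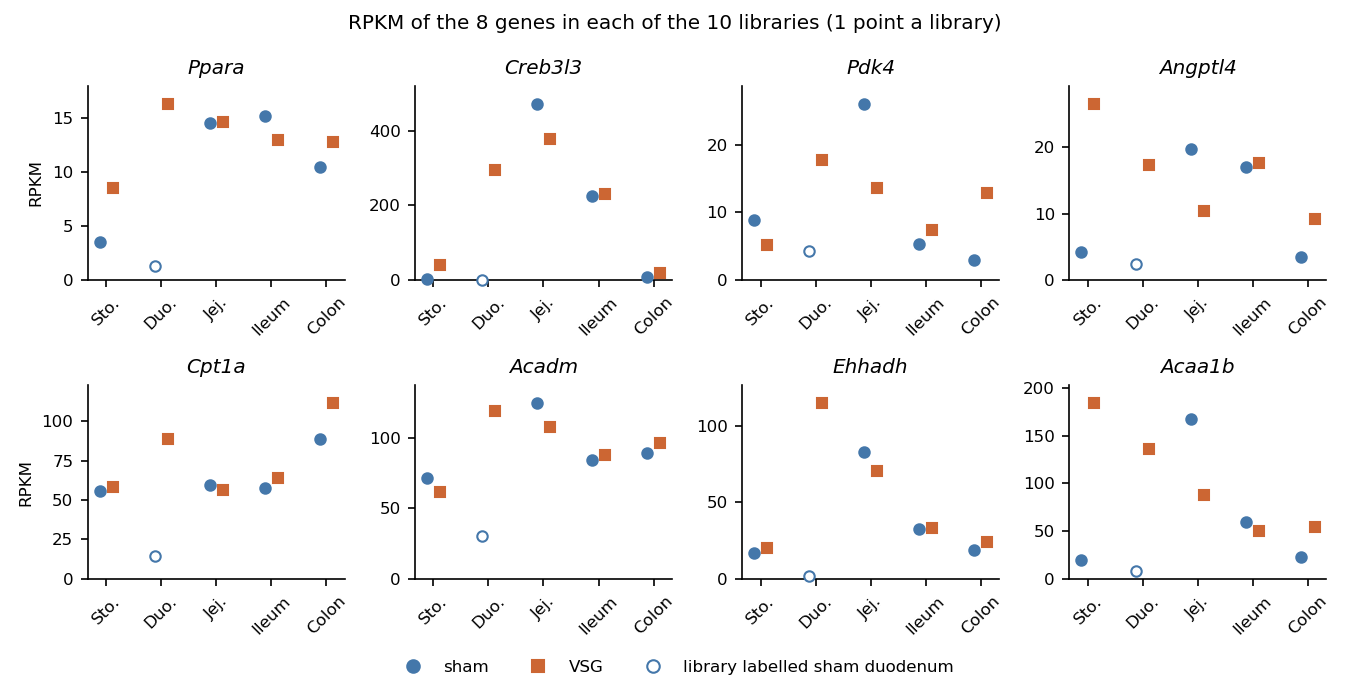
RPKM of each of the 8 genes (1 panel a gene, each with its own axis from 0) by tissue, with sham libraries as circles, VSG libraries as squares and the library labelled sham duodenum as an open circle; each point is 1 library. Creb3l3 lies between 226.5 and 474.7 RPKM in jejunum and ileum and at most 39.78 RPKM in stomach and colon, while Cpt1a is highest in colon.

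**Figure D3:**
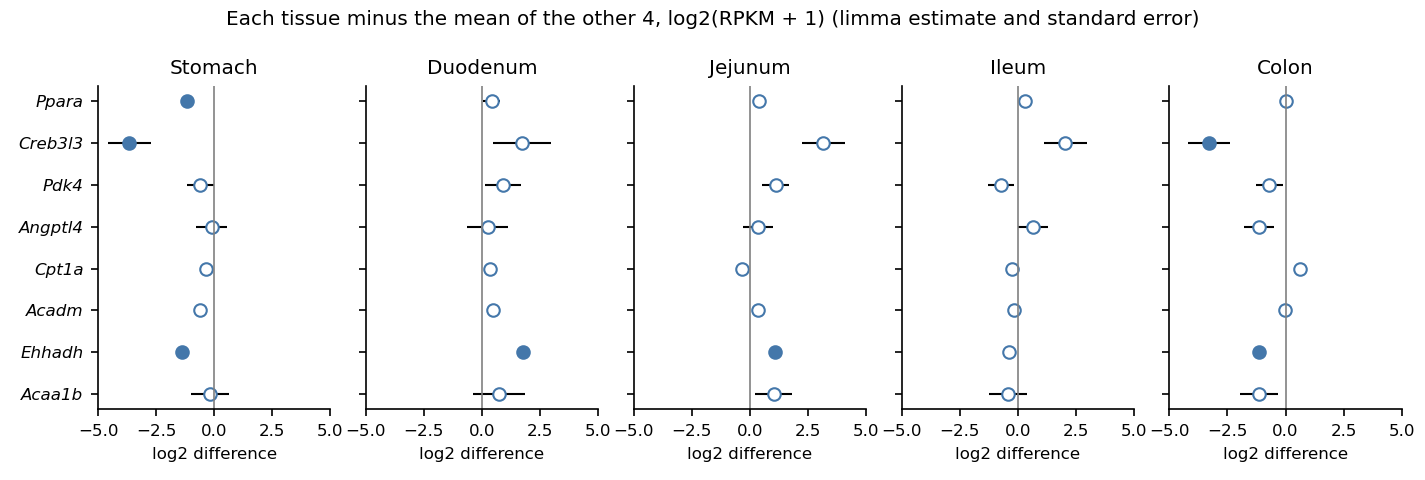
Log2 difference between each tissue and the mean of the other 4 for the 8 genes, from limma on log2(RPKM + 1) over 9 libraries; points are estimates, bars 1 standard error, and filled points passed an adjusted p under 0.05 and 2-fold. Ehhadh is filled in stomach, duodenum, jejunum and colon, Creb3l3 in stomach and colon, and Ppara in stomach.

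Other genes of fatty acid oxidation were also called between tissues. Of 19 other genes listed for peroxisomal oxidation and tested, 8 were higher and 0 lower in jejunum than in the other tissues (median log2 difference 1.06). Among them were Ephx2 (2.31, limma adjusted p = 0.00911) and Acox2 (1.62, adjusted p = 0.0367). In colon 0 of the 19 were higher and 8 lower (median -1.0), led by Ephx2 (-3.53), Acox2 (-2.66) and Scp2 (-1.78). The list is wider than the enzymes of oxidation: Ephx2 is an epoxide hydrolase, and Cat, also listed, is catalase. Of 21 mitochondrial genes 1 was higher in jejunum, Hadh (1.19, limma adjusted p = 0.00360), and in colon Acads (1.22) and Slc25a20 (1.09) were higher and Acaa2 (-1.09) lower. In stomach 7 peroxisomal genes were lower and 0 higher, and 5 mitochondrial genes were lower and 1 higher. In duodenum 0 peroxisomal and 3 mitochondrial genes were called, the latter all higher: Acad11 (1.28), Decr1 (1.24) and Hadh (1.04). The shares of all 13325 genes called, in either direction, were 9.73% in jejunum, 12.5% in colon, 19.5% in stomach and 4.74% in duodenum. The lists were not tested against each other.

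Among 24 other known targets of PPAR alpha tested, 6 were called higher and 1 lower in jejunum, where 9.73% of 13325 genes were called. Fabp1, the fatty acid binding protein of liver and intestine, was higher by 5.07 (limma adjusted p = 0.0374), Cyp4a10, a fatty acid hydroxylase, by 2.58 (adjusted p = 0.0237), and Gpd1, a glycerol phosphate dehydrogenase, by 2.19 (adjusted p = 0.00470), whereas Mgll, a monoglyceride lipase, was lower (-1.15, adjusted p = 0.0308). In colon, where 12.5% of genes were called, 10 targets were lower, led by Fabp1 (-7.09), Cyp4a10 (-3.23) and Gpd1 (-3.15). Another 4 targets were higher there, among them Acsl3 (1.66) and Txnip (1.22). Of the related receptors, Pparg (1.30, limma adjusted p = 0.00244) and Ppard (1.03, adjusted p = 0.00607) were called higher in colon, while Ppara was not (0.02, SE 0.27, adjusted p = 0.963).

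Of the genes named as Creb3l3 relatives or targets, 10 were tested. Apoa4, an apolipoprotein of chylomicrons and a known Creb3l3 target, was higher in jejunum by 4.78 (limma adjusted p = 0.00416) and lower in colon (-6.11, adjusted p = 0.00150), and Apoc2 was lower in colon (-5.27, adjusted p = 0.0357). Creb3l2 was higher in jejunum (1.38) and lower in colon (-1.33). Creb3l1 and Creb3l4, of the same family, had the other order, lower in jejunum (-2.34 and -1.62) and higher in colon (2.63 and 1.71).

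After VSG the colon library held more of all 8 genes. Pdk4 went from 2.86 to 12.95 RPKM, a VSG to sham ratio of 4.53 (95% exact interval 4.07 to 5.05, counting error only). Creb3l3 went from 6.48 to 17.91 RPKM (ratio 2.76, 2.52 to 3.04), Angptl4 from 3.43 to 9.16 RPKM (2.67, 2.33 to 3.07) and Acaa1b from 23.46 to 54.22 RPKM (2.31, 2.18 to 2.45). These 4 passed 2-fold on the log2(RPKM + 1) scale, which understates the change of low genes, where 0.478% of the 12970 genes kept did so in either direction. The other 4 were higher by less: the ratio was 1.27 for Ehhadh (1.20 to 1.35), 1.26 for Cpt1a (1.23 to 1.28), 1.22 for Ppara (1.17 to 1.28) and 1.08 for Acadm (1.04 to 1.11). Pdk4, Angptl4, Creb3l3 and Acaa1b thus had larger ratios than the receptor, Ehhadh and the mitochondrial enzymes, and their intervals did not overlap those of the other 4.

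Marker genes of other tissues differed in the same pair. Acinar markers were higher in VSG colon in 7 of 7, with Ctrb1 at 0.95 against 143.2 RPKM, and adipocyte markers lay above 0 in 7 of 8, with a sum of 82.7 against 37.1 RPKM, Cfd at 25.31 against 4.11 RPKM and Adipoq at 11.10 against 5.97 RPKM. Enterocyte markers lay above 0 in 7 of 8 (median log2 difference 0.21; sum 1001 against 810 RPKM). Liver markers lay above 0 in 4 of 5, with Alb at 2.81 against 1.14 RPKM. Smooth muscle markers lay below 0 in 8 of 9. The part of these tissues in the higher Pdk4, Angptl4, Creb3l3 and Acaa1b was not tested.

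In jejunum the direction was the other one for 7 of the 8. Acaa1b went from 167.8 to 87.94 RPKM, 1.91-fold lower after VSG (interval 1.85 to 1.97), Pdk4 from 26.21 to 13.67 RPKM, 1.92-fold lower (1.81 to 2.03), and Angptl4 from 19.75 to 10.34 RPKM, 1.91-fold lower (1.75 to 2.08). Creb3l3 was 1.26-fold lower (1.24 to 1.27), Ehhadh 1.18-fold (1.14 to 1.21), Acadm 1.16-fold (1.12 to 1.20) and Cpt1a 1.06-fold (1.03 to 1.09). Ppara itself had a ratio of 1.00, with an interval of 0.963 to 1.05 that holds 1. None of the 8 passed 2-fold on the log2(RPKM + 1) scale, where 1.06% of 11681 genes did. The members with the larger differences here, Pdk4, Angptl4 and Acaa1b, are 3 of the 4 that passed 2-fold in colon.

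Beside this, enterocyte markers lay below 0 in 9 of 10 in VSG jejunum (median -0.13; sum 13000 against 17210 RPKM), leukocyte markers above 0 in 9 of 9 (sum 769 against 420 RPKM), acinar markers above 0 in 7 of 7 and adipocyte markers above 0 in 4 of 5. Their part in the lower levels was not tested. Rescaling all libraries to 1 total of reads moved the median of all genes in jejunum from -0.02 to 0.08 on the log2 scale, and 6 of the 8 members were then below 0, with Cpt1a and Ppara above it. Enterocyte markers were then below 0 in 5 of 10.

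**Figure D4:**
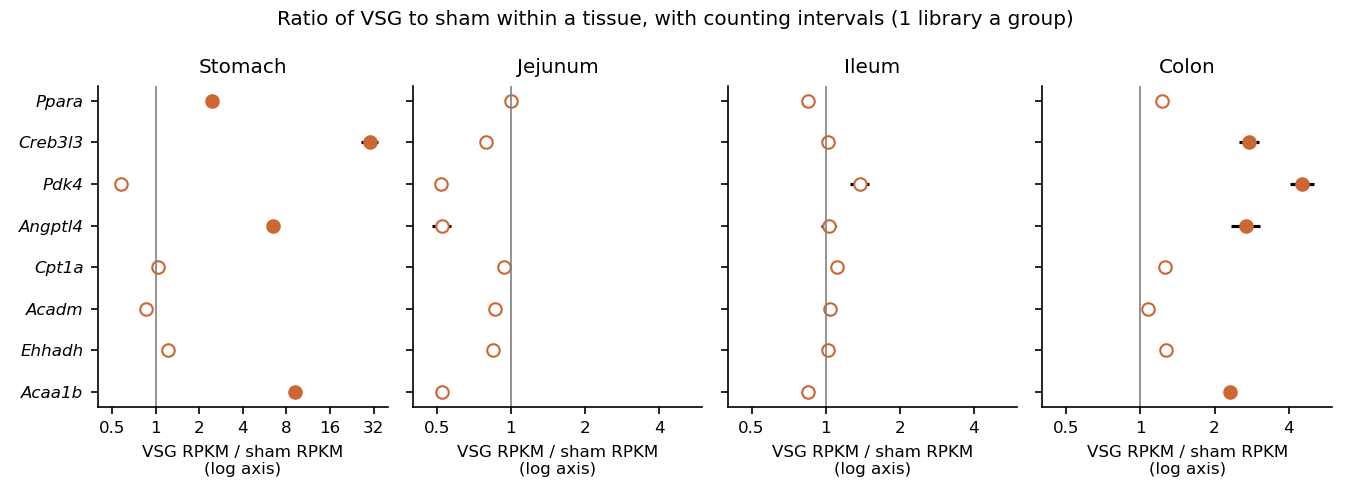
Ratio of VSG to sham RPKM (log axis) of the 8 genes in stomach, jejunum, ileum and colon, 1 library against 1; bars are exact 95% intervals of counting error and filled points passed 2-fold on the log2(RPKM + 1) scale. In colon all 8 points lie above 1, in jejunum 7 lie below it, and in ileum all lie between 0.844 and 1.38.

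The ileum pair was close to level. Pdk4 was the member that differed most, at 7.37 against 5.36 RPKM, a ratio of 1.38 (1.26 to 1.51). Cpt1a, Acadm and Creb3l3 had intervals above 1 with ratios of 1.12, 1.04 and 1.02, Ppara and Acaa1b lay below 1 (0.851 and 0.844), and the intervals of Angptl4 and Ehhadh held 1. None of the 8 passed 2-fold, where 0.27% of 12202 genes did. With libraries rescaled to 1 total of reads, 3 members lay above 0 and 5 below.

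In stomach, 4 members passed 2-fold, all higher in the VSG library, where 16.9% of 13367 genes passed. Creb3l3 had a ratio of 30.0 (26.3 to 34.4), Acaa1b of 9.12 (8.75 to 9.51), Angptl4 of 6.48 (5.94 to 7.07) and Ppara of 2.46 (2.33 to 2.61). Ehhadh (1.21) and Cpt1a (1.05) lay slightly above 1, whereas Pdk4 was 1.74-fold lower (1.61 to 1.88) and Acadm 1.16-fold lower (1.12 to 1.20). In the same pair all 15 liver markers passed 2-fold, with a median log2 difference of 8.73 and Alb at 5128 against 1.69 RPKM. Genes known from liver moved beside the members, such as Apoa5 (6.92), Apoc2 (6.01), Fabp1 (5.29) and Slc27a2 (4.63). Liver expresses all 4 of the members that passed, and it also expresses Cpt1a, Ehhadh and Acadm, which did not pass. VSG and liver RNA cannot be told apart in this pair.

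In duodenum all 8 members were at least 2-fold higher in the VSG library than in the library labelled sham duodenum, where 55.4% of 14461 genes passed 2-fold in either direction. Since that library lacks enterocyte RNA, no ratio is given.

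A shift shared by stomach, jejunum, ileum and colon was tested with the tissue as a block. No member was called: the largest estimate was that of Creb3l3 (log2 difference 1.29, SE 0.79, limma adjusted p = 0.825), and Acadm was the member below 0 (-0.07, SE 0.09, adjusted p = 0.864). Of 13357 genes, 0 (0%) were called by limma, and 349 had an unadjusted p under 0.05. The members' directions differed between tissues, as the pairs above show, and whether surgery acted differently by tissue has no test with 1 library a group.

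The same directions in jejunum and colon were seen in the other listed genes of fatty acid oxidation. All 21 mitochondrial genes were lower in VSG jejunum (median log2 difference -0.30) and all 21 were higher in VSG colon (median 0.16), and none passed 2-fold. The largest differences were those of Acaa2, the mitochondrial thiolase (-0.71 in jejunum), and of Slc22a5, the carnitine transporter (0.42 in colon). Of the peroxisomal genes, 19 of 19 were lower in jejunum (median -0.39) and 17 of 18 higher in colon (median 0.18). Of all genes kept, 53.0% lay below 0 in jejunum (median -0.015) and 49.6% above 0 in colon (median -0.0011). Rescaling left 21 of 21 and 18 of 19 lower in jejunum and 21 of 21 and 17 of 18 higher in colon. The sizes are small and each rests on a single pair of libraries, and genes of 1 library are not independent of each other.

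Of 25 other PPAR alpha targets, 20 lay below 0 in VSG jejunum (17 after rescaling) and 5 passed 2-fold, all lower: Cyp4a32 (-1.44), G0s2, an inhibitor of adipose triglyceride lipase (-1.35), Cyp4a10 (-1.22), Cyp4a31 (-1.16) and Me1, malic enzyme (-1.04). The 3 Cyp4a genes are near-identical copies that can share reads, so they may count as fewer than 3. In colon all 20 kept lay above 0, and 1 passed 2-fold, Vnn1, a pantetheinase (1.05), at 13.12 against 5.82 RPKM. Acot2 lay at -0.67 in jejunum and 0.51 in colon. Of 9 Creb3l3 relatives and targets kept in colon, Apoa4 passed 2-fold (1.25), at 56.63 against 23.27 RPKM, while it lay at -0.48 in jejunum.

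Taking both pairs, 7 of 8 members, 21 of 21 mitochondrial genes, 17 of 18 peroxisomal genes and 15 of 20 other targets were lower in VSG jejunum and higher in VSG colon, against 30.6% of the 11315 genes kept in both. With libraries rescaled to 1 total of reads the counts were 6 of 8, 21 of 21, 16 of 18 and 12 of 20, against 18.0% of genes. Of 11 genes listed for pyruvate dehydrogenase, the complex that Pdk4 shuts off, and its kinases, 2 did so, the kinases Pdk2 and Pdk3. Nuclear receptors and their partners did so in 5 of 15, and in 2 of 15 after rescaling. Enterocyte markers did so in 6 of 8, and in 3 of 8 after rescaling. Ppard lay at 0.17 in both pairs and Rxra, the partner of PPAR alpha, at -0.20 and 0.01.

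**Figure D5:**
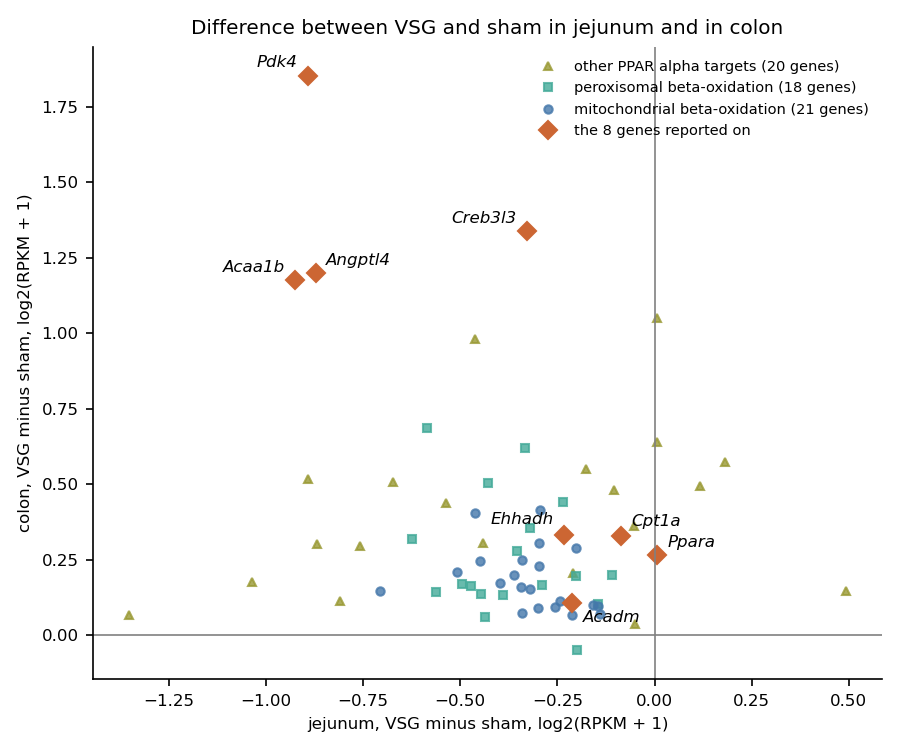
Difference between VSG and sham on the log2(RPKM + 1) scale in jejunum (horizontal axis) and in colon (vertical axis), 1 point a gene, for the 8 genes (diamonds), 21 mitochondrial and 18 peroxisomal genes listed for oxidation and 20 other PPAR alpha targets kept in both. Pdk4, Acaa1b, Angptl4 and Creb3l3 lie far up on the left, and the mitochondrial genes cluster below 0 in jejunum and above 0 in colon.

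The members did not all follow the same pattern over libraries. Over the 9 libraries without the one labelled sham duodenum, Pearson's r on log2(RPKM + 1) was highest between Angptl4 and Acaa1b (0.87), Ehhadh and Acadm (0.84), Creb3l3 and Ehhadh (0.83) and Ppara and Creb3l3 (0.83). In that order, 99.86%, 93.91%, 93.89% and 93.54% of the 13325 genes had a lower r with the first gene of the pair. Apart from Angptl4 and Acaa1b, many genes thus came closer to the first gene than its partner did. Cpt1a had r between -0.27 and 0.30 with the other 7. Ppara had r of 0.31 with Pdk4 and 0.52 with Angptl4. These are descriptions over libraries that share tissues and, for VSG stomach, liver RNA.

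Among 13325 genes, those whose pattern was most like each member's were also found by r over the same 9 libraries. For Ehhadh they were Decr1 (0.994), Cck, Xdh, Lonp2 and Tbcel (all at least 0.986), and for Creb3l3 they were Fmo5 (0.993), Pnp, Apob, Apoc2 and Ttyh2 (at least 0.981). For Pdk4 the likeness was weaker, with Acot2 (0.909), Pxmp4, Hadhb, Pmpcb and Acadl (at least 0.863). Hadhb and Acadl, enzymes of mitochondrial oxidation, and Acot2, a mitochondrial thioesterase, are also in the lists above. Ppara was nearest to Ugt1a1 (0.983), Donson, As3mt, Jchain and Rnf114, and Angptl4 to Sap30 (0.962), Blvra, Rab24, Sc5d and Iah1. Acaa1b was nearest to Rilpl2 (0.962), Ctsz, Tap1, Lamp1 and Rdh16f2, Cpt1a to Cog8 (0.988), Sdr39u1, Nelfa, Alg9 and Ing4, and Acadm to Cox15 (0.990), Necap1, Phykpl, Cox11 and Btbd9.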

How the data were processed

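Total RNA of 5 gut tissues after VSG or sham surgery was isolated with TRIzol and libraries were prepared with a TruSeq kit, per the labels' protocols. GSNAP, Cufflinks and the mouse build mm10 are named in the submitters' processing notes, with no version or role. The annotation used is not given in the sources used here. Per the file headers, the authors deposited RPKM values of 23079 genes by Entrez identifier, of which 23008 (99.69%) matched a symbol. From row 27 to row 18213, the values of the 8 intestinal columns were displaced downwards by 1 row against the identifiers, and this was undone. All 8 genes lie in that block and all 8 gave whole reads after the move. The deposited RPKM steps returned whole reads, within 0.001 reads, for 18565 of 18580 genes (99.92%); these reads gave exact conditional binomial (Clopper-Pearson) 95% intervals, which cover counting error only. Recovered reads were 0.858 times the depth implied by the scaling in the library labelled sham duodenum, 1.16 times in VSG duodenum and 0.961 to 1.04 times elsewhere.

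For each tissue, genes averaging 1 RPKM or more were kept and called at 2-fold on log2(RPKM + 1), with no test. limma 3.58.1 in R 4.3.3 was fitted to log2(RPKM + 1) for genes passing the same minimum, with a trend of variance on mean and Benjamini-Hochberg adjustment over all genes at 0.05. The surgery fit used 8 libraries with tissue as a block, and the tissue fit 9 libraries with surgery as a term and a 2-fold limit. The tissue contrasts share libraries. As nothing says that libraries came from separate animals, p-values reflect the spread among these libraries alone, which may be technical. In both fits this spread is the variation between tissues of the difference between VSG and sham. Effects of surgery in single tissues, and RNA of other tissues in a VSG library, thus enter it. Named genes were all 8 members, the listed pathway genes past a threshold (the 3 largest each way where there were over 6; a few others are named for their role or to close a comparison, after their values were seen), and the 5 genes nearest each member in pattern; a few listed genes are not reported here by name. The members and gene lists were chosen with earlier results of these data known. Promoters and coordinates are from RefSeq on GRCm38, the assembly that mm10 stands for. Alternatives were another pseudocount, other scalings, no filter, no trend, no surgery term, all 10 libraries, rows as deposited and each library or tissue left out.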

Additional observations from a re-analysis of the deposited data

Results flagged for a closer look

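Each of the 8 genes was higher after VSG in at least 1 and lower in at least 1 of stomach, jejunum, ileum and colon. With 1 library a group the difference between tissues was not tested. The span between the highest and the lowest log2 difference over these 4 tissues was 4.46 for Creb3l3, 4.05 for Acaa1b, 3.31 for Angptl4 and 2.74 for Pdk4, and for the first 3 the highest was in the stomach pair, whose VSG library holds liver RNA. For Pdk4 it ran from -0.89 in jejunum to 1.85 in colon. The span was 1.31 for Ppara (stomach 1.095, ileum -0.22), 0.566 for Ehhadh, 0.414 for Cpt1a and 0.318 for Acadm.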

How the results depend on the processing

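Leaving out 1 library changed many tissue calls, and with all 10 libraries, the library labelled sham duodenum included, none of the 8 genes was called between tissues. In the surgery fit 0 genes were called, and 0 to 2 when each tissue was left out (2 without stomach, and 0 of the 8 genes in each). The counts between tissues that follow are out of 13325 genes tested, 14634 with rows as deposited and 14156 with all 10 libraries. Against the other tissues 3650 genes were called, 9287 with rows as deposited, 1138 with all 10 libraries; of the 8 genes 3 were called, 5 with rows as deposited, 0 with all 10 and 1 to 4 without 1 library (1 without sham jejunum, sham ileum, sham colon or VSG colon). Between neighbours 3953 genes were called, 9087 with rows as deposited, 1005 with all 10; of the 8 genes 3, then 6, 0 and 1 to 5 (1 without sham jejunum, 5 without VSG stomach). Genes past 2-fold at a pseudocount of 0.1 RPKM numbered 205 in jejunum (124 at 1 RPKM), 77 in ileum (33) and 96 in colon (62). With rows as deposited, 5 of the 8 genes passed 2-fold in duodenum and 0 in colon, and directions turned for Ppara (-2.45), Pdk4 (-0.41) and Cpt1a (-0.071) in duodenum, Creb3l3 in colon (-0.0095), Ppara in stomach (2.09) and jejunum minus stomach (-2.24), and Ehhadh in colon (2.18), duodenum (-0.0045), jejunum (-1.43), jejunum minus ileum (-1.21) and jejunum minus stomach (-0.47); there a row mixes 2 genes by construction. Ehhadh in duodenum turned to -0.78 with all 10 libraries. Of the other values of single genes, 1104 were counted as unchanged. Values of the fits then kept their direction and side of the threshold, and differences within a tissue stayed within their counting interval. Differences near 0 could turn within that interval. Among the rest, 70 lost a call, 17 gained one and 158, with or without a test, moved beyond their counting interval or turned without being called. Counting error is small at these depths (the fewest reads of a member outside the library labelled sham duodenum were 237, for Creb3l3 in sham stomach), and the missing replicates are the limit. The labels give no replicate numbers; the surgery fit pairs libraries by tissue.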
